A study of Mus musculus with 4 samples.

Results

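Penk-high conventional T cells were those CD4 T cells of the small bowel lamina propria that held transcripts of Penk, the gene of the enkephalin precursor, and none of Foxp3, the transcription factor of regulatory T cells. A cell was counted as a member when its barcode had at least 3 unique molecular identifiers (UMIs, each taken as 1 captured transcript) of Penk and 0 of Foxp3. Barcodes under 500 detected genes or above 10% mitochondrial counts were set aside first. Members were 601 of 19960 kept cells in recipients 1, 2 and 4. They were 150 of 9301 cells in recipient 1 (1.61%, 95% exact binomial interval 1.37 to 1.89), 398 of 9244 in recipient 2 (4.31%, 3.90 to 4.74) and 53 of 1415 in recipient 4 (3.75%, 2.82 to 4.87). All 4 recipients together held 23586 kept cells. Recipient 3 was left out by the same rule, and there the immunoglobulin gene Igkc was found in 85.5% of the barcodes that were not Penk-high and Foxp3-negative.

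The cells came from Rag1-/- mice, which cannot form T or B cells but keep innate lymphoid and other blood cells. Each mouse was irradiated, given 10000000 bone marrow cells, 50% from CD45.1+ WT and 50% from CD45.2+ Bcl3-/- donors, and analysed after 16 weeks. All recipients thus share 1 genotype and 1 treatment, and the groups compared lie inside each animal. Live CD45+CD3+CD4+ cells were sorted and the donor of each was read from antibodies to CD45.1 and CD45.2 that carry a sequence tag. Ages, and whether donors were pooled, were not given in the labels.

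Preproenkephalin is cut at pairs of basic residues by proprotein convertases into several copies of Met-enkephalin and a copy of Leu-enkephalin, short peptides that act on delta and mu opioid receptors. It is best known from neurons and the adrenal medulla, and activated helper T cells and some regulatory T cells transcribe it too. In the inflamed gut, enkephalins from CD4 T cells have been linked to lower visceral pain.

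Penk (ENSMUSG00000045573) codes for this protein from the minus strand of chromosome 4 (chr4:4133531-4138819, mm10). The reading frame in the GENCODE M21 transcript had 268 codons, with 6 stretches for Met-enkephalin and 1 for Leu-enkephalin. The stretches below are shown because they are what the message counted here encodes. They are coding exon sequence, printed 5′ to 3′ on the gene's strand, with the enkephalin codons in capitals and the flanking codons in lower case.
Met-enkephalin stretch 1, chr4:4134328-4134354: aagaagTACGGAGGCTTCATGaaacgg
Met-enkephalin stretch 2, chr4:4134307-4134333: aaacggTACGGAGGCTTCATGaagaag
Leu-enkephalin stretch 6, chr4:4133935-4133961: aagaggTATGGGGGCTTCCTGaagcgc
Met-enkephalin stretch 7, chr4:4133842-4133868: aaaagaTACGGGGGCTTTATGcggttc
Stretches 1 and 2 share the basic codons between them. The capitals of stretch 6 end in CTG and those of the others shown in ATG, and earlier codons differ too. A pair of basic codons stood before all 7 stretches. Such a pair also followed 5 of them, but not stretch 7, the last. The libraries count the 3′ ends of transcripts, so the UMIs show that the message was present and not that any peptide was released.

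The rule fixed the lower end of Penk, and its values are given as a description. In recipient 1 the members held a median of 6 Penk UMIs, from 3 to 128. In recipient 2 the median was 8 (3 to 405), and in recipient 4 it was 9 (3 to 73). At least 30 UMIs were found in 15, 61 and 5 members of recipients 1, 2 and 4. Just inside the threshold, with 3 or 4 UMIs, lay 54, 108 and 11 members. Just outside it, with 1 or 2 Penk UMIs and no Foxp3, lay 196, 459 and 57 cells. The few members nevertheless carried most of the message: 73.0%, 76.0% and 68.0% of all Penk UMIs of their recipients. A further 16.7%, 17.4% and 24.2% lay in cells with at least 3 Penk UMIs and at least 1 of Foxp3, which numbered 28, 95 and 13. Penk-high cells made up 1.96%, 5.37% and 4.83% of Foxp3-negative cells and 1.71%, 5.18% and 4.10% of Foxp3-positive cells. Within a recipient the shares with and without Foxp3 lay close together, and recipient 1 was lowest in both.

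**Figure D1:**
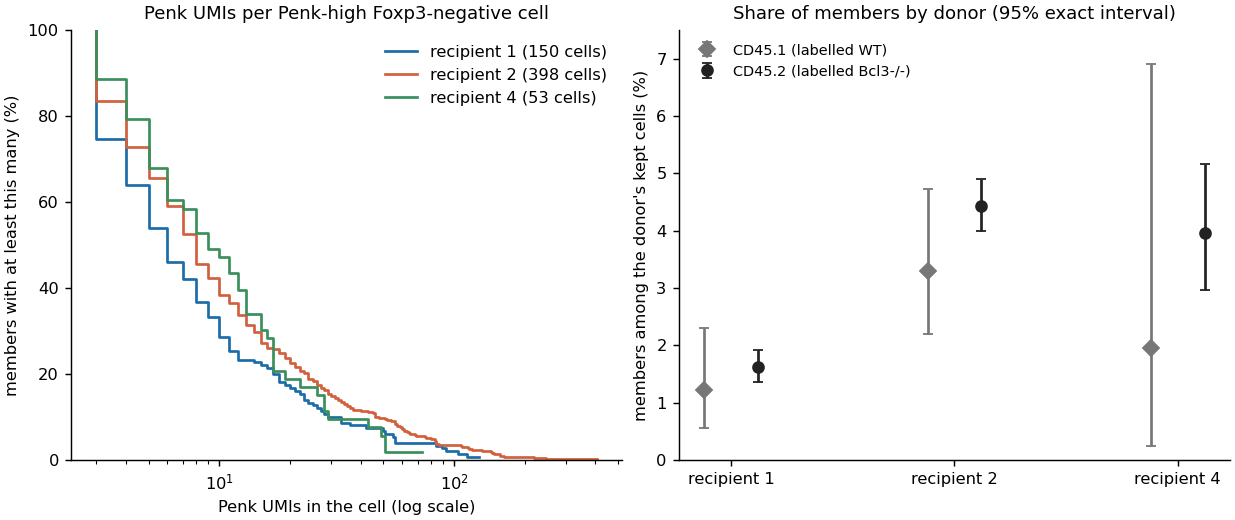
Left, share of members (percent) with at least a given number of Penk UMIs (log axis), one line per recipient; the lines start at the minimum of 3 UMIs and reach 128, 405 and 73 UMIs in recipients 1, 2 and 4. Right, members as a percent of each donor's kept cells with 95% exact binomial intervals; the CD45.2 point lies above the CD45.1 point in each recipient (1.62% against 1.22%, 4.43% against 3.29% and 3.96% against 1.96%), with overlapping intervals.

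The libraries of recipients 1 to 4 held 8642411 to 60347749 UMIs. Summed over members, the counts were 1378977, 3214859 and 427968 UMIs in recipients 1, 2 and 4, so that 3 UMIs of a gene correspond to a level of 2.18, 0.933 and 7.01. Levels are given here as counts per 1000000 summed UMIs (CPM). Any 2 libraries shared at most 33 barcode sequences. Members were deeper than other cells, with a median of 7588, 6846 and 6854 UMIs against 5911, 5743 and 5793.5. The comparison with all other cells was therefore also made against others matched on total UMIs, whose log2 fold changes are named below where a call changed or the value moved by over 1.5 times. Intervals given here cover counting error only.

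The label of T cells was checked against 13 T cell genes (Cd3e, Trac, Cd4, Lck and others), all of which were detected. Their summed level was 9276 to 9872 CPM in members and 8716 to 9097 CPM in other cells. Kit, Igfbp7 and Plek are also known from mast cells and innate lymphoid cells, from vessels and from platelets, so the defining genes of those cells were read. Of 11 mast cell genes other than Kit only Hdc had UMIs in members (2.34 to 7.47 CPM, 3.29 to 6.56 CPM for the list in other cells), and Cpa3, Mcpt1, Mcpt2, Tpsb2, Fcer1a and Gata2 were at 0. Of 7 innate lymphoid genes other than Kit, 4 were detected (629 to 868 CPM in members, 574 to 626 CPM in other cells) and Ncr1, Gata2 and Arg1 were at 0. Id2, which many T cells express, made up 669, 856 and 603 CPM of this in recipients 1, 2 and 4. Platelet genes other than Plek had 4 UMIs in all members, and Pf4 and Ppbp were at 0. The genes of neurons, glia and enteroendocrine cells had 5 UMIs, with Chga, Vip and Sox10 at 0. A gene at 0 in all members allows up to 0.597 CPM (3 UMIs). Of the 9 stroma and endothelium genes other than Igfbp7, 3 were detected, at 57.9 to 71.1 CPM against 62.8 to 71.2 CPM in other cells. The genes of B and plasma cells summed to 30.4 to 91.8 CPM in members and 29.5 to 1504 CPM in other cells, of which Jchain, Igkc and Igha were called lower in members. Epithelial genes summed to 23.4 to 45.0 CPM against 20.8 to 29.8 CPM. Of these, the keratin gene Krt18 was called higher, at 27.6, 32.0 and 18.7 CPM against 17.9, 13.0 and 9.76 CPM (log2 fold change 0.98, SE 0.18, adjusted p = 0.0018, and 0.24 without recipient 2). Genes of CD8 and gamma-delta T cells summed to 154 to 231 CPM against 180 to 283 CPM, with Cd8a at 0. The part of any of these cells in the results was not tested.

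"Conventional" rests on Foxp3 alone, and the genes that accompany it were read as a check. Ikzf2, a transcription factor abundant in regulatory T cells, was at 339, 270 and 397 CPM in the members of recipients 1, 2 and 4. Other cells had 265, 307 and 406 CPM, and the Penk-high Foxp3-positive cells 1486, 1085 and 1709 CPM. Members lay below the Penk-high Foxp3-positive cells in each recipient. Against all other cells, which include Foxp3-positive ones, Ikzf2 did not pass the test (log2 fold change -0.0030, adjusted p = 0.99). Among the 15 tested genes of the Foxp3 list, 1 was higher (Itgb8) and 4 were lower (Il2ra, Tnfrsf18, Lrrc32 and Il10), with a median of -0.01. Over all genes in that comparison 7.97% were called higher and 7.44% lower. Against other cells with Foxp3 at 0, as in the members, Ikzf2 was higher (0.66, adjusted p = 1.3e-05). There 7 of 13 of these genes were higher and none lower, with a median of 0.58. Of all 10825 genes tested there 1908 were called, 52.6% of them higher. Foxp3 itself is sparse, at 72.0, 89.2 and 123 CPM over all other cells, and 0 UMIs in a cell does not show that the cell lacked it.

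To ask what else marks these cells, the summed counts of members were compared with those of all other kept cells of the same recipient. Members had more Nrgn, Kit, Zeb2, Havcr2 and Gzma and more of the cytokine genes Il17a and Il17f, and less Il7r, Itga1 and Ccr2. The quasi-likelihood test of edgeR called 875 of 10979 genes (7.97%) higher and 817 (7.44%) lower in members at an adjusted p under 0.05. The median log2 fold change over all of them was -0.0041. The counts fell to 439 and 471 without recipient 2, to 541 and 485 without recipient 1, and to 390 and 455 against other cells matched on total UMIs. Without the recipient as a block they were 258 and 160.

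The genes Nrgn, Kit, Igfbp7, Il21 and Plek had been picked as markers of these cells with their values known, so their levels describe and do not support the choice. Nrgn, which encodes neurogranin, a calmodulin-binding protein known from neurons, stood at 149, 179 and 185 CPM in members of recipients 1, 2 and 4 and at 37.6, 36.5 and 56.3 CPM in other cells. Kit, the receptor of stem cell factor, had 129, 101 and 84.1 CPM against 40.0, 24.8 and 36.1 CPM. Igfbp7, a secreted binding protein, had 21.8, 38.9 and 30.4 CPM against 5.10, 7.14 and 12.2 CPM. In each of these 3 genes every member value lay above every value of the other cells. Il21, a cytokine of helper T cells, was at 77.6, 42.6 and 25.7 CPM against 26.5, 13.0 and 18.8 CPM, and Plek, the pleckstrin gene, at 24.7, 27.7 and 11.7 CPM against 7.65, 7.34 and 8.11 CPM. The Il21 values of recipient 4 lay close together and the 2 sets overlap across recipients.

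The rule itself set Penk high, so of the opioid system only the other genes were read. Pdyn, Pnoc, Oprd1 and Oprk1, the genes of other opioid precursors and of the delta and kappa receptors, had no UMI in members, and neither had Oprl1. Oprm1, the mu receptor gene, had 2, 1 and 0 UMIs in members of recipients 1, 2 and 4, and Pomc, the endorphin precursor gene, 2, 12 and 0. Of 11 genes of peptide processing, 7 were tested, 2 were higher and none was lower, with a median of -0.01. Furin, a convertase found in nearly all cells, was at 946, 1211 and 376 CPM in members and 801, 749 and 313 CPM in other cells (log2 fold change 0.38, SE 0.09, adjusted p = 0.013). Without recipient 2 its adjusted p was 0.28, and among cells with at least 3 Il17a UMIs on both sides Furin was called lower in members (-0.26, adjusted p = 0.041). Pcsk1, a convertase of neuroendocrine cells, was at 9.43, 17.7 and 7.01 CPM against 1.76, 4.73 and 10.0 CPM, higher in 2 of 3 recipients (log2 fold change 1.61, SE 0.37, adjusted p = 0.0087, 0.25 without recipient 2 and 0.052 by DESeq2). Pcsk2 had no UMI.

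Of 14 tested cytokine genes 10 were higher and 1 was lower, with a median log2 fold change of 0.77. The 10 include Il21, which was picked as a marker with its values known. Il17a, the main cytokine gene of Th17 cells, was at 4333, 4269 and 1362 CPM in the members of recipients 1, 2 and 4 and at 2541, 1824 and 382 CPM in other cells. Recipient 4 was lower on both sides, and in each recipient the members were above (log2 fold change 1.20, SE 0.13, adjusted p = 2.6e-05). Il17f, its neighbour and close relative, was at 328, 587 and 224 CPM against 172, 164 and 48.3 CPM (1.52, SE 0.16, adjusted p = 1.9e-05). Ifng, the cytokine gene of Th1 cells, was at 350, 648 and 164 CPM against 305, 302 and 78.9 CPM. Its log2 fold change was 0.70 (SE 0.14, adjusted p = 0.0034), 0.41 without recipient 2 (adjusted p = 0.089) and 0.41 with at least 5 Penk UMIs (adjusted p = 0.093). Il22, which acts on the epithelium, had 542, 921 and 178 CPM against 497, 599 and 116 CPM and rose less, by 0.38 (SE 0.10, adjusted p = 0.018). It gave an adjusted p of 0.32 without recipient 2, of 0.051 by DESeq2 and of 0.38 against other cells with Foxp3 at 0, and turned to -0.068 (adjusted p = 0.81) with at least 5 Penk UMIs.

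Csf2, the gene of GM-CSF, was uneven: it had 1.45, 32.7 and 122 CPM in members and 4.22, 10.0 and 3.80 CPM in other cells. The 52 UMIs in the members of recipient 4 came from 1.89% of its 53 members, which is 1 cell, and in recipients 1 and 2 it was in 1.33% and 2.76% of members. Its log2 fold change of 2.17 (adjusted p = 0.013) became 1.23 without recipient 4 (adjusted p = 0.020), and DESeq2 did not call it (adjusted p = 0.64). Mif, a cytokine gene of activated cells, was even across recipients, at 505, 482 and 544 CPM against 270, 284 and 259 CPM (log2 fold change 0.85, SE 0.08, adjusted p = 6.8e-06), and the value was 0.47 against cells matched on total UMIs. Tgfb1 had a log2 fold change of 0.60 (SE 0.08). Lif rose by 1.38 (SE 0.30, adjusted p = 0.0067) and missed the threshold without recipient 2 (adjusted p = 0.095) and against cells matched on total UMIs. Il10, whose product limits inflammation, was the cytokine gene that was lower: 101, 222 and 21.0 CPM against 299, 301 and 45.0 CPM (log2 fold change -0.94, SE 0.16, adjusted p = 0.0014). The value was -1.58 without recipient 2 and -0.56 without recipient 1. Against other cells with Foxp3 at 0 the sign turned, to 0.37, and did not pass the test (adjusted p = 0.14).

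**Figure D2:**
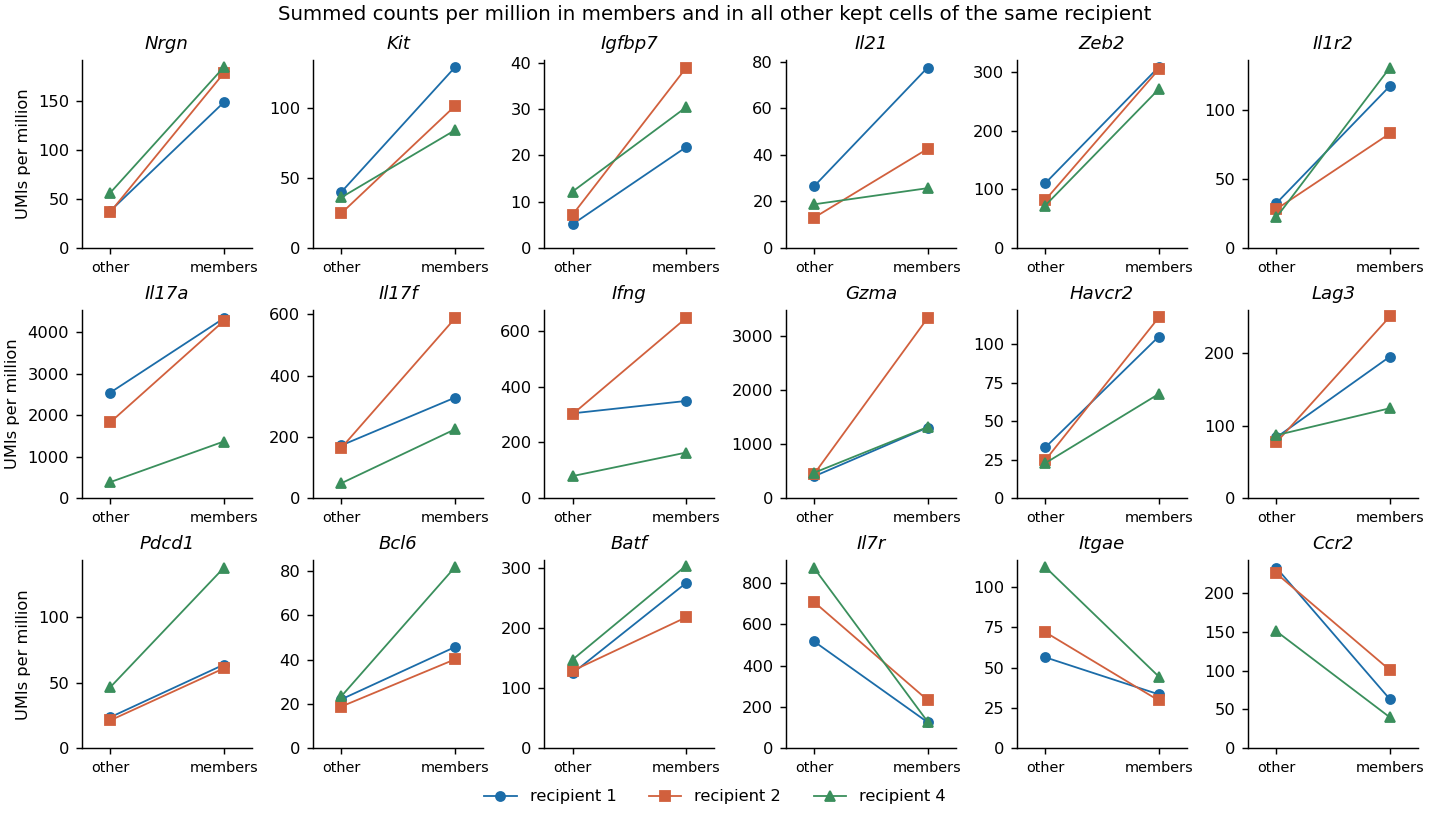
Summed counts per 1000000 UMIs of 18 genes in other kept cells and in members, joined for each of recipients 1, 2 and 4; each axis starts at 0. The lines rise in all 3 recipients for Nrgn, Kit, Igfbp7, Zeb2, Il1r2, Il17a, Gzma and the receptor genes Havcr2, Lag3 and Pdcd1, and fall for Il7r, Itgae and Ccr2; the steep Gzma line is recipient 2 (442 to 3325 CPM).

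Against all other cells, 8 of 12 tested genes of coinhibitory receptors were higher and 1 was lower, with a median of 0.59. Such receptors restrain T cells and are raised by lasting stimulation. Havcr2, which encodes TIM-3, was at 105, 118 and 67.8 CPM in members and 32.9, 24.6 and 22.7 CPM in other cells (log2 fold change 1.90, SE 0.13, adjusted p = 5.8e-07). Pdcd1, which encodes PD-1, was at 63.8, 61.0 and 138 CPM against 23.6, 21.2 and 46.5 CPM (1.46, SE 0.11, adjusted p = 9.2e-07). For Lag3 the values were 195, 250 and 124 CPM against 83.6, 76.7 and 86.7 CPM (1.29, SE 0.14, adjusted p = 2.4e-05). In each of these 3 genes all 3 summed levels of members lay above all 3 of other cells. Single cells overlap, since Havcr2 had a UMI in 34.7%, 35.2% and 22.6% of members and 11.5%, 8.65% and 8.44% of other cells, and in 19.0%, 24.0% and 17.6% against 7.07%, 5.17% and 5.57% after thinning each cell to 3000 UMIs. Tox, a transcription factor of persistently stimulated cells, rose by 0.55 (SE 0.10, adjusted p = 0.0025) and gave an adjusted p of 0.15 without recipient 2. Vsir, which encodes VISTA, was the gene that was lower (-0.48, SE 0.10, adjusted p = 0.0055). The list had 8 higher also against other cells matched on total UMIs, but 4 without recipient 2 and 5 by DESeq2. It was not higher as a group against the 2 closer populations compared below. Against Penk-high Foxp3-positive cells 1 of 12 was higher (Lag3) and 1 lower, with a median of 0.12. Against cells with Il21 but no Penk or Foxp3 UMIs, 3 were higher and 2 lower, with a median of -0.037.

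Several of these genes also belong to follicular helper T cells, which help B cells. In that list 8 of 19 tested genes were higher and 1 was lower, with a median of 0.41, and 3 of the 8 (Pdcd1, Tox and Cd200) are shared with the previous list. Bcl6, the factor that defines follicular helper cells, was at 45.7, 40.1 and 81.8 CPM against 22.1, 18.8 and 23.4 CPM (log2 fold change 1.17, SE 0.15, adjusted p = 9.9e-05). Tox2 rose by 0.86 (SE 0.10, adjusted p = 3.9e-05) and Cd200 by 1.38 (SE 0.16, adjusted p = 4.6e-05), or 0.86 against cells matched on total UMIs. Cxcr5, the receptor that brings such cells to follicles, stood at 22.5, 14.9 and 18.7 CPM against 15.6, 11.3 and 16.7 CPM and did not pass the test (0.37, SE 0.18, adjusted p = 0.20).

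The Th17 list was split. Of 19 tested genes 6 were higher (Il17a, Il17f, Il22, Ccl20, Batf and Blk) and 3 lower (Tmem176b, Serpinb1a and Abcb1a), with a median of 0.14. Batf, a transcription factor of several helper subsets, was at 275, 218 and 304 CPM against 124, 129 and 147 CPM (log2 fold change 0.92, SE 0.09, adjusted p = 8.7e-06). Ccl20, a chemokine gene, had 184, 789 and 210 CPM against 122, 185 and 100 CPM, with a log2 fold change of 1.33 (SE 0.20, adjusted p = 0.00046), of 0.72 without recipient 2 and of 1.20 by DESeq2 (adjusted p = 0.063). Abcb1a, a transporter gene of Th17 cells, fell by 1.35 on the log2 scale (SE 0.10, adjusted p = 9.2e-07).

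Because members held Il17a UMIs more often, the comparison was repeated among cells with at least 3 Il17a and 0 Foxp3 UMIs on both sides, an alternative chosen after seeing the data. It held 91 members against 2488 cells in recipient 1 and 252 against 2079 in recipient 2. Recipient 4, with 14 such members, did not enter. There 580 genes were higher and 471 lower. The 5 marker genes, picked with their values known, are again given as a description. Nrgn was higher by 1.07, Kit by 0.83, Igfbp7 by 1.33, Il21 by 0.75 and Plek by 1.27. Havcr2 (1.34), Lag3 (1.05), Gzma (1.55) and Zeb2 (0.72) were higher too. The Th17 list then had 2 genes higher and 7 lower of 19, with a median of -0.22, and Il22 (-0.44) was lower in members. Pdcd1, Tox, Il17f, Itga1, Itgae, S1pr1 and Ifng no longer passed the test in this subset.

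In the list of Th1 and cytotoxic genes 3 of 20 were higher (Ifng, Gzma and Nkg7) and 6 lower, with a median of -0.13. Gzma, which encodes a protease of cytotoxic granules, was at 1302, 3325 and 1311 CPM in members against 399, 442 and 466 CPM in other cells (log2 fold change 2.02, SE 0.19, adjusted p = 6.8e-06). Members of recipient 2 were highest, and all 3 levels lay above those of other cells. Cxcr3, a receptor of Th1 cells, was lower, at 49.3, 52.9 and 35.1 CPM against 94.3, 116 and 74.8 CPM (-1.11, SE 0.10, adjusted p = 6.8e-06).

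Genes that respond to stimulation of the T cell receptor also went both ways, with 8 of 22 higher and 3 lower and a median of 0.26. Rel, an NF-kB subunit, was at 344, 507 and 313 CPM in members and 212, 230 and 116 CPM in other cells (log2 fold change 1.00, SE 0.11, adjusted p = 2.2e-05). Of the 12 tested genes of the NF-kB family and its regulators 3 were higher and 1 was lower (median 0.10). Nr4a2, a nuclear receptor, rose by 0.70 (SE 0.10, adjusted p = 0.00021) and Tnfrsf9, which encodes the costimulatory receptor 4-1BB, by 0.80 (SE 0.12, adjusted p = 0.0004). Tnfrsf9 was 2.07 higher against other cells with Foxp3 at 0 and 0.52 higher against cells matched on total UMIs. Cd69, induced early after stimulation and kept by resident cells, was lower: 584, 649 and 124 CPM against 948, 808 and 212 CPM (-0.59, SE 0.09, adjusted p = 0.00064). Nfkbid fell by 0.52 (SE 0.14, adjusted p = 0.021) and missed the threshold without recipient 1 (adjusted p = 0.23), without recipient 2 (adjusted p = 0.31), against cells matched on total UMIs (adjusted p = 0.088) and by DESeq2 (adjusted p = 0.25).

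Some genes of memory and residence were called lower. Over all genes tested 7.97% were called higher and 7.44% lower, so none higher in a list of 13 lies near that share. Of the naive and central memory list none of 13 was higher and 6 were lower (median -0.63), and of the residence and adhesion list none of 13 was higher and 4 were lower (median -0.15). Il7r, the receptor chain for interleukin 7, which sustains memory cells, was at 125, 233 and 129 CPM in members and 517, 708 and 873 CPM in other cells (log2 fold change -2.03, SE 0.14, adjusted p = 5.7e-07). Itgae, the integrin chain CD103 that binds epithelial cells, was at 33.4, 29.6 and 44.4 CPM against 56.4, 72.0 and 112 CPM (-1.18, SE 0.13, adjusted p = 2.9e-05). Against other cells with Foxp3 at 0 this difference was gone (-0.05, adjusted p = 0.87). S1pr1, which lets T cells leave tissue, and Klf2, which controls it, fell by 1.60 (SE 0.15) and 1.09 (SE 0.18), the latter not called by DESeq2 (adjusted p = 0.22). The stress and dissociation genes, a sign of handling, had 1 of 15 higher and 4 lower (median -0.16).

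Proliferation genes were called against all other cells but not against others matched on total UMIs. All 13 tested were higher, with a median of 1.35. Mki67, expressed in dividing cells, was at 100, 105 and 164 CPM in members and 44.1, 62.9 and 46.5 CPM in other cells (log2 fold change 1.04, SE 0.14, adjusted p = 0.00017). Leaving out cells above 3 times the median UMI count, among them 8, 16 and 3 members, left 6 of 13 genes (median 0.60, Mki67 0.24). Against other cells matched on total UMIs none of the 13 passed the test (median 0.38, Mki67 0.16). Glycolysis genes went from 7 of 13 higher (median 0.37) to 4 of 13 (median 0.19) against the matched cells, and Ldha from 0.37 (SE 0.07, adjusted p = 0.0031) to 0.19. Dividing cells hold more RNA, and which of depth and division comes first was not tested.

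**Figure D3:**
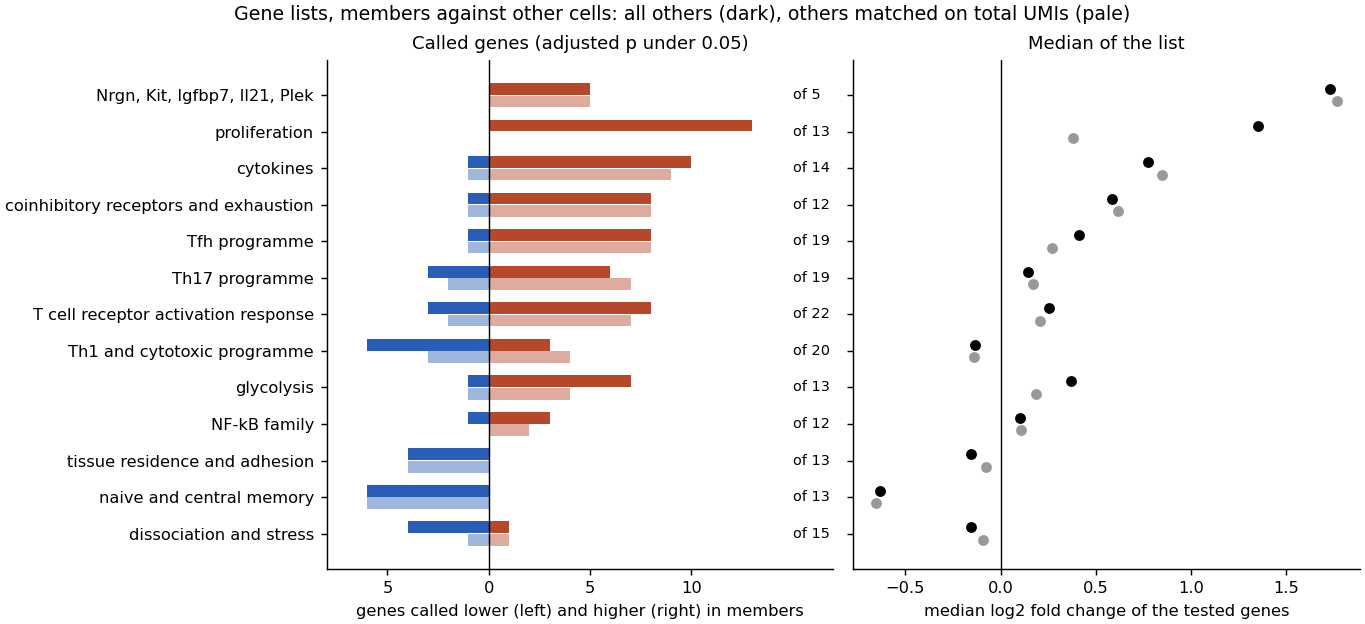
Left, genes of each list called higher (right of 0) or lower (left of 0) in members at an adjusted p under 0.05, with the number tested against all other cells beside the bars; right, median log2 fold change of each list. Dark bars and black points compare with all other cells, pale bars and grey points with others matched on total UMIs; the proliferation bar goes from 13 genes to 0, and the coinhibitory bar stays at 8.

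Among called genes that reach an average log2 CPM of 5, the 12 highest by fold change were Apoe, Nrgn, Gzma, Havcr2, Pclaf, Il1r2, Kit, Zeb2, Hist1h1b, Hist1h3c, Il17f and Endod1. Of these, Nrgn and Kit had been picked as markers with their values known. Zeb2, a transcription factor of terminally differentiated effector cells, was at 309, 305 and 271 CPM against 110, 81.7 and 72.3 CPM (log2 fold change 1.70, SE 0.09, adjusted p = 4.1e-08). Il1r2, a decoy receptor for interleukin 1, was at 117, 83.1 and 131 CPM against 32.4, 28.1 and 22.2 CPM (1.80, SE 0.14, adjusted p = 1.3e-06). Apoe, the apolipoprotein gene best known from macrophages, was uneven, at 21.0, 142 and 63.1 CPM against 10.3, 18.1 and 31.3 CPM. Its log2 fold change was 2.14 (SE 0.29), 0.96 without recipient 2 and 3.08 against cells matched on total UMIs. The summed myeloid genes were at 5.80 to 12.8 CPM in members and 14.2 to 20.1 CPM in other cells. Endod1 rose by 1.48 (SE 0.13). Pclaf (1.81), Hist1h1b (1.70) and Hist1h3c (1.57) belong to dividing cells. Against the cells matched on total UMIs they were at 0.38, 0.34 and 0.28, and of the 3 only Hist1h1b still passed the test. Histone genes have near-identical copies, so their counts are uncertain.

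The 12 lowest were Itga1, Atp8a2, Il7r, Cpm, Trat1, Ctla2a, S1pr1, Kbtbd11, Ccr2, Serpinb1a, Dkkl1 and St3gal6. Itga1, the integrin chain CD49a of tissue-resident cells, was at 5.80, 9.33 and 0 CPM against 46.5, 44.8 and 20.9 CPM (log2 fold change -2.59, SE 0.22, adjusted p = 3.1e-06). Ccr2, a chemokine receptor for recruitment into inflamed tissue, was at 63.1, 101 and 39.7 CPM against 233, 226 and 151 CPM (-1.53, SE 0.13, adjusted p = 2.8e-06). Trat1, an adaptor of the T cell receptor complex, was at 16.0, 26.4 and 9.35 CPM against 48.8, 79.8 and 100 CPM (-1.81, SE 0.17). Cpm, a membrane carboxypeptidase gene, fell by 1.87 (SE 0.21), and by 2.83 without recipient 2. The others lay between -2.12 (Atp8a2) and -1.36 (St3gal6), each lower in 3 of 3 recipients, and Serpinb1a was not called by DESeq2 (adjusted p = 0.089). Against other cells with Foxp3 at 0, Ccr2 was at -0.98 and Ctla2a at -1.04. Of 22 chemokine and chemokine receptor genes 5 were higher and 5 lower (median 0.15). Cxcr4, which holds cells at sites of its ligand, was at 160, 146 and 110 CPM against 52.6, 62.3 and 46.4 CPM (1.32, SE 0.10, adjusted p = 9e-07).

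Single cells were compared at 1 depth by thinning each to 3000 UMIs, which left out 19 members and 1622 other cells with fewer. A share of cells with a UMI has a background from free RNA, read here in cells with Ccr7 and Lef1 UMIs, a naive phenotype that should lack effector genes (593, 304 and 34 cells, median depth 7083, 7102 and 6978.5 UMIs). Nrgn was found in 22.4% (95% exact interval 16.0 to 30.1), 21.4% (17.4 to 25.8) and 27.5% (15.9 to 41.7) of thinned members of recipients 1, 2 and 4. It was found in 4.47%, 4.35% and 5.83% of other cells and in 0.680%, 1.01% and 0% of the Ccr7 and Lef1 positive cells. Before thinning the shares were 29.3%, 29.6% and 35.8% in members and 5.73%, 5.89% and 7.42% in other cells. Zeb2 was in 49.7%, 44.5% and 35.3% of members, 18.4%, 14.4% and 12.6% of other cells and 6.63%, 4.70% and 6.06% of the background cells; unthinned, it was in 72.0%, 66.8% and 54.7% of members. At this depth neither gene was found in all members.

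Effector genes were also found together in the same cell. Il17a was in 64.6%, 69.5% and 25.5% of thinned members and 39.9%, 36.1% and 14.6% of other cells, with 14.3%, 17.8% and 0% in the background cells. Il17a and Gzma together were in 21.1%, 26.3% and 15.7% of members, 6.42%, 6.08% and 3.69% of other cells and 0.680%, 0.671% and 0% of the background cells. Il17a and Ifng together were in 32.0%, 40.1% and 13.7% against 16.0%, 13.8% and 4.63%. Unthinned, the shares with Gzma were 23.3%, 30.4% and 15.1% against 8.52%, 8.48% and 3.82%. Recipient 4 was lowest on both sides for Il17a and for each pair. Among thinned members Ifng was in 39.5%, 44.3% and 17.6% and Gzma in 23.1%, 29.9% and 21.6%. Whether the pairs were found more often than these single shares would give was not tested. Il7r was in 20.4%, 30.2% and 23.5% of members and 51.5%, 64.7% and 61.8% of other cells. For Mki67 or Top2a the shares were closer, at 19.7%, 16.1% and 15.7% against 10.9%, 12.1% and 13.5%.

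Within Foxp3-negative cells the levels were then read by the number of Penk UMIs, as a description. Cells with 1 or 2 Penk UMIs, which the rule leaves out, already had 107, 94.0 and 284 CPM of Nrgn in recipients 1, 2 and 4, against 40.9, 38.5 and 58.3 CPM in cells without Penk. Their Il7r was 186, 419 and 309 CPM against 565, 808 and 1008 CPM. Among members Il7r went down further with Penk in recipients 1 and 2, from 159 and 282 CPM at 3 or 4 UMIs to 41.6 and 119 CPM at 30 or more. Havcr2 went up in the same recipients, from 88.0 and 89.6 to 178 and 158 CPM. Il22 fell in members of recipient 2 from 1685 CPM at 3 or 4 Penk UMIs to 146 CPM at 30 or more, and in recipient 1 from 517 to 125 CPM. Nrgn went opposite ways, from 174 to 83.2 CPM in recipient 1 and from 139 to 307 CPM in recipient 2, and Kit stood at 97.0 and 118 CPM in recipient 2. Recipient 4 had only 5 members with 30 or more UMIs and 11 with 3 or 4, and its Il7r was 57.1 and 41.2 CPM. Cells with 30 or more UMIs were also deeper, with medians of 9635, 8664 and 10336 UMIs against 7066, 6458 and 6989 at 3 or 4.

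**Figure D4:**
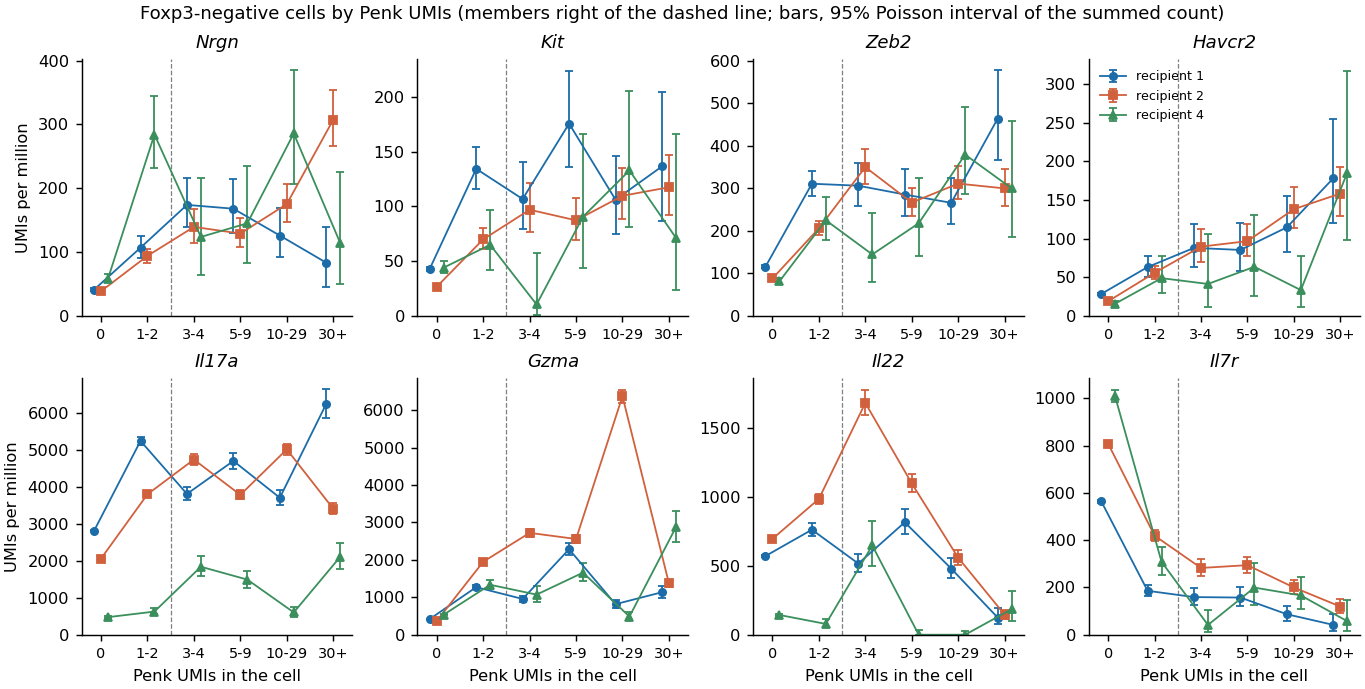
Summed counts per 1000000 UMIs of 8 genes in Foxp3-negative cells grouped by their Penk UMIs, one line per recipient, with 95% Poisson intervals of the summed count; cells right of the dashed line are members. Il7r goes down and Havcr2 up with Penk in recipients 1 and 2, and Il22 in recipient 2 goes down from 1685 to 146 CPM.

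The cells most like the members by the rule were those with at least 3 Penk UMIs and at least 1 of Foxp3. Recipients 1 and 2 had at least 20 cells on each side and were compared, with 150 against 28 and 398 against 95 cells. There 118 (1.41%) of 8367 genes were higher in members and 166 (1.98%) lower by edgeR, and 29 and 47 by DESeq2. With only 2 recipients, neither could be left out. In the list of genes that accompany Foxp3, which the choice of these cells favours, none of 15 was higher and 12 were lower in members (median -1.92, against -0.0030 over all genes tested). Ikzf2 had a log2 fold change of -2.08 (SE 0.12, adjusted p = 1.4e-10), Il10 of -1.99 (SE 0.23, not called by DESeq2 with adjusted p = 0.28) and Tnfrsf4, the receptor OX40, of -1.76 (SE 0.16). The Th17 list had 6 of 19 higher and 1 lower (median 0.72).

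Both Penk-high populations held Il17a, and members had more. Their values were 4333 and 4269 CPM in recipients 1 and 2 against 626 and 890 CPM in the Foxp3-positive cells (log2 fold change 2.48, SE 0.11, adjusted p = 1.3e-12). Il17f was at 328 and 587 CPM against 14.0 and 33.3 CPM, and Ifng at 350 and 648 CPM against 32.7 and 94.0 CPM (4.20, SE 0.22, and 2.90, SE 0.19). Among the marker genes, Nrgn was at 149 and 179 CPM against 60.8 and 24.1 CPM, and Kit at 129 and 101 CPM against 4.67 and 27.5 CPM. In the Foxp3-positive cells 3 UMIs correspond to 14.0 and 3.44 CPM. Their Il17f and Kit values in recipient 1 thus lie at or below that level and are uncertain. Gzma, at 1302 and 3325 CPM against 1753 and 1280 CPM, did not pass the test (0.51, SE 0.23, adjusted p = 0.39), nor did Havcr2 (0.88, SE 0.25, adjusted p = 0.056). Neither proliferation (0 of 13 genes called, median 0.20) nor glycolysis (0 of 13, median 0.21) had a called gene here. Over all genes tested 1.41% were called higher and 1.98% lower, so 0 of 13 lies near that share.

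By rank the 6 highest were Apoe, Ccl4, Il17f, Gja1, Tcrg-C2 and Ifng. Apoe had 486 UMIs in the members of both recipients and 1 UMI in the Foxp3-positive cells, a ratio of 115 with a counting interval of 20.5 to 4548. Ccl4, a chemokine gene, had 233 against 3 UMIs (18.4-fold, 6.21 to 89.7), and its call was lost when only CD45.2 cells were compared (log2 fold change 2.80, adjusted p = 0.13). Gja1, the gap junction gene connexin 43, had 42.1 and 82.7 CPM against 0 and 5.73 CPM, where the 0 allows up to 14.0 CPM (3 UMIs). Tcrg-C2 has near-identical copies, so its count is uncertain. The 6 lowest were Mt1, Swap70, Itgae, Pcyt1a, Ctla2a and Tnfrsf9. Mt1, a metallothionein, was at 1.45 and 9.33 CPM against 164 and 132 CPM (-4.41, SE 0.37), Itgae at 33.4 and 29.6 CPM against 369 and 230.5 CPM (-3.18, SE 0.20) and Tnfrsf9 at 74.0 and 101 CPM against 645 and 427 CPM (-2.52, SE 0.20). Both recipients moved the same way in each of these genes.

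Since Il21 was among the marker genes, members were also set against cells with at least 1 Il21 UMI and no Penk or Foxp3, of which there were 551, 287 and 49 in recipients 1, 2 and 4. In members 220 (2.34%) of 9414 genes were higher and 166 (1.76%) lower by edgeR, against 48 and 43 by DESeq2. These counts were 128 and 71 without recipient 1, 105 and 108 without recipient 2, and 388 and 306 without recipient 4, and without the recipient as a block 14 and 5. Il21 is made by follicular helper and other helper T cells, so the choice of the Il21 cells favours follicular helper genes on their side. In that list none of 20 genes was higher in members and 10 were lower (median -0.76, against -0.0082 over all genes tested). Cxcr5 was at 22.5, 14.9 and 18.7 CPM in members and 61.1, 46.0 and 86.0 CPM in the Il21 cells (log2 fold change -1.65, SE 0.18, adjusted p = 4.6e-05). Egr2 and Egr3, induced by the T cell receptor, were lower by log2 values of -1.71 (SE 0.21) and -3.08 (SE 0.32, -4.87 without recipient 2), and the receptor response list had 3 of 22 higher and 8 lower (median -0.27). Nfkbid (-1.25, SE 0.17), Kbtbd11 (-1.55, SE 0.17) and Il6st, a receptor chain for interleukin 6 (-1.22, SE 0.17), complete the 6 lowest.

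The 6 highest in that comparison were Gzma, Rgs9, Tnfrsf9, Hist1h2ae, Havcr2 and Nrgn. Gzma was at 1302, 3325 and 1311 CPM against 236, 524 and 11.1 CPM (log2 fold change 2.82, SE 0.24, adjusted p = 2.1e-06, and 0.063 by DESeq2). Rgs9, a regulator of G protein signalling, was at 67.4, 74.0 and 70.1 CPM against 13.5, 16.4 and 27.8 CPM (2.11, SE 0.19, adjusted p = 3.7e-06). Nrgn, Kit, Igfbp7 and Plek had been picked as markers with their values known. Their values and calls here describe and do not support that choice. Nrgn was 1.62 higher (SE 0.10), Kit 1.26 (SE 0.13), Zeb2 1.22 (SE 0.09) and Tnfrsf9 1.90 (SE 0.15). Igfbp7 rose by 1.19 (SE 0.22, adjusted p = 0.0041, 0.061 without recipient 1 and 0.18 by DESeq2), and Plek, at 0.77 (SE 0.25, adjusted p = 0.10), did not pass the test. Plek was at 0.49 without recipient 2 and was called without recipient 4 (0.90, adjusted p = 0.0073). Il17a differed by 0.45 (SE 0.12, adjusted p = 0.036), by 0.73 without recipient 2, and gave an adjusted p of 0.20 without recipient 1 and of 0.059 by DESeq2. Hist1h2ae, a histone gene with near-identical copies, rose by 1.75, and by 0.35 (adjusted p = 0.80) without cells above 3 times the median UMI count. Proliferation genes had 8 of 12 higher and none lower (median 1.07).

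**Figure D5:**
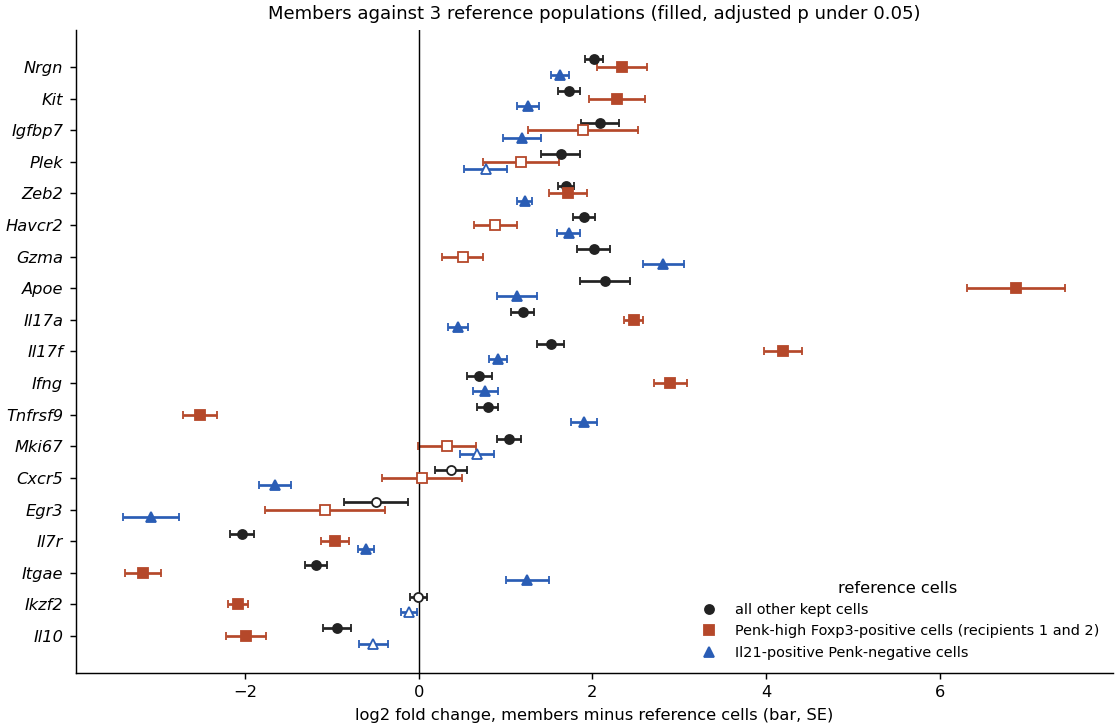
Log2 fold change of members over all other kept cells (circles), over Penk-high Foxp3-positive cells (squares, recipients 1 and 2) and over Il21-positive Penk-negative cells (triangles), with the SE as bars; filled symbols passed an adjusted p under 0.05. Nrgn and Kit are filled and right of 0 in all 3 comparisons, but were picked as markers with their values known. Tnfrsf9 lies at 0.80, -2.52 and 1.90. The comparisons share the members.

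The variable segment of the T cell receptor beta chain was read where a barcode held UMIs of 1 segment only (69, 175 and 32 members). Trbv14 was the most frequent in members of recipient 2, in 15.4% (95% exact interval 10.4 to 21.7) against 3.05% (2.48 to 3.71) of other cells. In recipients 1 and 4 it was in 0 of 69 and 2 of 32 members, against 0.680% and 0.356% of other cells. Trbv3 was the most frequent in recipient 1 (21.7%, 12.7 to 33.3, against 11.7%) and in recipient 4 (25.0%, 11.5 to 43.4, against 12.5%), but in recipient 2 it was in 5.14% of members and 9.90% of other cells. The leading segment was thus Trbv3 in recipients 1 and 4 and Trbv14 in recipient 2. Segments are related genes read at their 3′ end only in part, and clones cannot be told from them.

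Members were also divided by donor with a tag call of at least 10 tag UMIs and at least a 4-fold ratio between the tags. The tags had no part in the choice of members. Bcl3, the targeted gene, was read first. Over all kept cells it was at 31.4, 21.6 and 13.8 CPM in cells tagged CD45.1 and labelled WT, and at 76.2, 76.5 and 76.0 CPM in cells tagged CD45.2 and labelled Bcl3-/-. Among members of recipient 2 it was at 27.7 CPM (95% Poisson interval 10.2 to 60.4) and 76.6 CPM (66.9 to 87.4). The level thus went against the labels in all 3 recipients. Which part of the gene was deleted is not stated in the labels, and 3′ counts outside it check nothing. Every direction between donors below is one between the labels. In recipient 1, 136 of 8398 cells tagged CD45.2 and 9 of 736 tagged CD45.1 were members (1.62% and 1.22%). The counts were 363 of 8198 and 28 of 851 in recipient 2 (4.43% and 3.29%), and 51 of 1289 and 2 of 102 in recipient 4 (3.96% and 1.96%). In each recipient the exact intervals of both shares overlapped.

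The mean log2 odds ratio, CD45.2 minus CD45.1, was 0.50 ± 0.21 (SD, n = 3), above 0 in 3 of 3 recipients, and flipping the signs in an exact two-sided permutation test gave p = 0.25, the smallest that 3 recipients allow. When the rule was applied after thinning to 3000 UMIs, recipient 1 turned to -0.51 (67 of 7685 and 8 of 683 cells), with 0.47 in recipient 2. In recipient 4 none of 93 CD45.1 cells met it, which allows up to 3.89%. Both tags were found at less than a 4-fold ratio in 5, 7 and 0 members. They were 3.33%, 1.76% and 0% of members and 1.65%, 2.09% and 1.54% of other cells, and such barcodes can hold 2 cells.

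Only recipient 2 had at least 20 members of each donor, 28 CD45.1 with 216295 UMIs and 363 CD45.2 with 2898302 UMIs, so there was no test of genes between donors and the values describe 1 animal. By a rule of size, the listed genes furthest apart above 100 CPM in both donors together were taken. Apoe had no UMI in the CD45.1 members and 157 CPM in the CD45.2 members, at least 11.3-fold higher against a floor of 3 UMIs. Kit was at 23.1 CPM (7.51 to 54.0) in CD45.1 and 111 CPM (99.0 to 124) in CD45.2 members, Ikzf2 at 64.7 and 285 CPM, and Tnfrsf9 at 32.4 and 106 CPM. Genes of dividing cells lay the other way, with Mki67 at 328 CPM (256 to 414) in CD45.1 and 92.1 CPM (81.4 to 104) in CD45.2 members and Top2a at 411 and 111 CPM. With 28 cells on the smaller side a few cells can carry such values.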

How the data were processed

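Droplet 3′ single-cell libraries of sorted CD4 T cells were made from 4 recipients. The deposited matrices hold raw counts of UMIs per gene or antibody tag and barcode, made with Cell Ranger 6.1.1 on mm10, per the submitters' processing notes; the annotation used for counting is not stated there. Members and gene lists were chosen with earlier results of these data known. Counts were summed per recipient and side and tested with edgeR 4.0.16 in R 4.3.3 (quasi-likelihood, TMM, filterByExpr, recipient as block, Benjamini-Hochberg adjusted p under 0.05 over all genes). The sums of both sides of 1 recipient share its animal and library; their deviations correlated at 0.30, 0.42 and 0.38 for members against other cells. Levels are CPM of summed counts. A comparison needed at least 20 cells on each side.

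Genes were named by rule: the listed genes, and the 12 highest and 12 lowest log2 fold changes (6 and 6 in the other comparisons) among called genes that reach an average log2 CPM of 5 with 1 sign in all recipients, without receptor segments, immunoglobulin, unnamed genes, Penk and Foxp3. The test was checked on simulated counts. Doublets were not removed by a caller; an alternative left out cells above 3 times the median UMI count. Other alternatives were DESeq2 1.42.0, no filter, no block, Penk minimums of 2 and 5, CD45.2 cells only, a mitochondrial share of at most 5%, UMI-matched others (5 nearest per member), others without Foxp3, and each recipient left out. Leaving out mixed-tag cells and requiring at least 3 Il17a UMIs were added after seeing the data. The list symbols Cd244a, Folr4, Znf683 and Aldoa had no row under those names. A gene that was tested is left unnamed and not reported on its own.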

Additional observations from a re-analysis of the deposited data

Results flagged for a closer look

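In recipient 3, which no comparison used, 143 barcodes met the same rule of at least 3 Penk UMIs and none of Foxp3 (3.94% of 3626 kept barcodes), and they are given here because that library was left aside. Of these, 79.0% were at 3 or 4 Penk UMIs, with a median of 3 and a highest value of 161, and the other barcodes of that library had a median of 1 Penk UMI. Igkc was detected in 87.4% of the 143 and in 85.5% of the rest. The 143 barcodes had a median of 13915 UMIs against 8471 in the rest.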

How the results depend on the processing

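Against all other cells, DESeq2 called 482 genes higher and 425 lower, the fit without the recipient block 258 and 160, others matched on total UMIs 390 and 455, and cells with at least 3 Il17a UMIs on both sides, added after seeing the data, 580 and 471. Leaving out 1 recipient at a time gave 439 to 881 higher and 471 to 830 lower. Of the 1692 genes called, 902 were also called by DESeq2, 787 against matched others and 418 without the block, and 4 changed sign against matched others. The median over all tested genes was 0.16 by DESeq2 and -0.18 without the filter on low counts. Against Penk-high Foxp3-positive cells DESeq2 gave 29 and 47, at least 5 Penk UMIs 77 and 96, and CD45.2 cells only 58 and 65, and no recipient could be left out with 1 pair then remaining. Against Il21-positive cells DESeq2 gave 48 and 43, no filter 353 and 278, no recipient block 14 and 5, and leaving out 1 recipient 105 to 388 higher and 71 to 306 lower.

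Values of named genes that changed sign were Il22 at -0.068 with at least 5 Penk UMIs and -0.44 with at least 3 Il17a UMIs, Cxcr5 at -0.21 with at least 5 Penk UMIs and -0.0076 against matched others, and Il10 at 0.37 against Foxp3-negative others and 0.14 with at least 3 Il17a UMIs. Il17a (-0.16) and Furin (-0.26, called lower) also did so there, where Il17a sets the choice of cells; for the rest the cause was not tested. Ikzf2 moved around 0, from -0.17 without recipient 1 to 0.13 without recipient 2, at 0.015 without cells above 3 times the median UMI count and 0.0062 with a mitochondrial share of at most 5%, and was 0.66 against Foxp3-negative others and 0.36 with at least 3 Il17a UMIs. Without the recipient block 24 named genes of the first comparison, 2 of the second and 9 of the last lost their call.

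The mean log2 odds ratio between donors was 0.839 with at least 2 Penk UMIs, 0.745 among Foxp3-negative cells, 0.39 with at least 5 Penk UMIs and 0.49 with a tag ratio of at least 10. After thinning, the values of recipients 1, 2 and 4 were -0.51, 0.47 and 2.55, and their mean of 0.838 rests on 0 of 93 CD45.1 cells in recipient 4 with 0.5 added to each count. Leaving out 1 recipient gave 0.38 to 0.58. The edgeR comparison of members between donors was not run, since 1 recipient had 20 members of each donor. Depth limits recipient 4, where 3 UMIs in members are 7.01 CPM.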
